A study of Homo sapiens with 5 samples.

Results

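The expression of 51 genes of DNA replication and mitosis was followed in the human glioma cell line D54 after silencing of TIP-1. The members were taken by name, and each was represented by the brightest row that carried its symbol alone, ranked by the mean over all 5 arrays. Such a row was found for 50 of the 51 members, out of 18417 genes with a row of their own among the 33297 rows of the array. CENPA, the centromeric histone H3 variant, had no row to itself and was left out. The 50 genes were split into 20 replication and G1/S genes, 27 G2 and mitosis (G2/M) genes and 3 D-type cyclins. D54 is an established glioma line, and RNA was taken after trypsinised cells had been replated in DMEM/F12 and kept overnight. Control cells were transfected with a control shRNA and came as 2 arrays from independent clones. Silenced cells were transfected with an shRNA against TIP-1 and came as 3 arrays, each from a different shRNA, numbered 1, 2 and 3. The numbers of a control and an shRNA array were not taken as pairs, and no technical replicates were made. Each shRNA therefore had 1 array, and p-values rested on the spread between clones and between shRNAs. In the limma fit each row's variance was also moderated toward a value shared by all rows, so SEs and p-values carry both.

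TIP-1 is a small protein consisting of a PDZ domain, which binds the tails of other proteins. Before S phase, the MCM2 to MCM7 helicase ring is loaded at origins with the help of CDC6, and it becomes active once CDC45 and the GINS complex join it. Entry into mitosis depends on CDK1 with its A- and B-type cyclins, and the spindle checkpoint holds back the anaphase-promoting complex until chromosomes are attached. Many replication genes are controlled through E2F sites in their promoters, and many G2/M genes through CCAAT boxes and the cell cycle homology region (CHR). In gliomas, as in other tumours, these transcripts are widely used to gauge how many cells are dividing.

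The promoters of 4 members are shown for their E2F and CHR elements, which differed in frequency between the sets. They also display the CCAAT box, which is common in both sets. They are those of MCM6 and GINS2, replication genes whose TIP-1 shRNA arrays lay above both controls, and those of the cyclins CCNB1 and CCNB2, whose group differences had opposite signs. Each is the stretch of 250 bases before the RefSeq start in GRCh38.p14, written 5′ to 3′ on the gene's strand: MCM6 at chr2:135876444-135876693 (minus), GINS2 at chr16:85688955-85689204 (minus), CCNB1 at chr5:69166900-69167149 (plus) and CCNB2 at chr15:59104896-59105145 (plus). Capitals mark E2F words in the first pair, CHR words in the cyclins, and CCAAT or its complement ATTGG in all 4.
MCM6: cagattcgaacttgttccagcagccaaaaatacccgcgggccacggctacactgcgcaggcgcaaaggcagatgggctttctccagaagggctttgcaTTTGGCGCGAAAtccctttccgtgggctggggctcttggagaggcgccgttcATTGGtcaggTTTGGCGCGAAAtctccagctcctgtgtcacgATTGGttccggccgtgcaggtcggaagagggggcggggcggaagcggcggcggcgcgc
GINS2: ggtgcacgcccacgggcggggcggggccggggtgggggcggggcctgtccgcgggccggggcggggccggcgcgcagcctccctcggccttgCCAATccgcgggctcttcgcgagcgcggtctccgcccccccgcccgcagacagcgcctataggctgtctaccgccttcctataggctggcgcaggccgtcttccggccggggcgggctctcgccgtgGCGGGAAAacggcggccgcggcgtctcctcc
CCNB1: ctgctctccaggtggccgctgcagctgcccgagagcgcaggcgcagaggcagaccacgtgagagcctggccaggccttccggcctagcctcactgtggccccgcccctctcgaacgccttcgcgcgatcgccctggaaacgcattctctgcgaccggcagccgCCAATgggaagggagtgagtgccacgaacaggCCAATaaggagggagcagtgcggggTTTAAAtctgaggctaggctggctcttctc
CCNB2: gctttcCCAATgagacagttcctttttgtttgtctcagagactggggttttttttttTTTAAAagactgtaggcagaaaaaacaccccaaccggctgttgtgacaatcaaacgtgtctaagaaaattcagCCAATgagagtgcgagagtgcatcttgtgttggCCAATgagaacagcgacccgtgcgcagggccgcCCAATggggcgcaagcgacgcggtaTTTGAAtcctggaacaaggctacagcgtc

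The same stretch was searched on both strands in the RefSeq promoters of 39 members, a gene counting as a match if any of its listed starts matched. The E2F words were TTTGGCGC, TTTCCCGC, TTTCGCGC and TTTGCCGC, some of which overlap when read on opposite strands, as in MCM6. The CHR words were TTTGAA and TTTAAA. An E2F word stood in 9 of 17 replication genes and 2 of 21 G2/M genes, against 3.4% of all 27305 genes in the promoter table. A CHR word stood in 16 of 21 G2/M genes and 4 of 17 replication genes, against 25.5% of all genes. CCAAT stood in 12 of 17 replication genes and 17 of 21 G2/M genes, against 37% of all genes. The sets named by function thus also differed in the E2F and CHR words of their promoters, which the choice of members did not use. A match is a description of the sequence and not a bound site.

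The silenced gene was checked first. The row for TAX1BP3, which encodes TIP-1 and shares the row with a read-through transcript, read 12.05 and 12.10 in controls 1 and 2 and 9.81, 9.61 and 9.55 in shRNAs 1, 2 and 3 (log2 signal). It fell by 2.42 on the log2 scale (SE 0.105, limma adjusted p = 0.011), but it no longer passed when control 1, control 2 or shRNA 2 was left out (limma adjusted p = 0.386, 0.387 and 0.129). All arrays were alike, with Pearson correlations across rows from 0.991 to 0.997. Upper quartiles were 9.77 in both controls and 9.79, 9.80 and 9.83 in shRNAs 1, 2 and 3, so bright rows tended to be slightly higher with TIP-1 shRNA. Among the 13 glioma and astrocyte markers, VIM (13.84 to 14.02) and CD44 (13.73 to 13.80) gave bright signals, as did EGFR (11.12 to 11.30) and SOX9 (10.39 to 10.74). GFAP (7.86 to 8.14), OLIG2 (7.13 to 7.50) and SOX2 (7.05 to 7.26) lay near or below the array medians of 7.88 to 7.98. So did NES, S100B, AQP4, SLC1A3, ALDH1L1 and CHI3L1 (5.36 to 8.06), and none of the 13 passed the test. The table holds no detection calls, so a dim row was not called absent. Of the markers of T cells, microglia, neurons, oligodendrocytes, endothelium and epithelium that were listed, all 27 measured had values of 9.38 or less, and none passed the test.

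All 50 members were tested, with no filter on low values. No member passed the test between the groups (limma, Benjamini-Hochberg over all rows, adjusted p from 0.707 to 0.999), beside 0.003% of all rows. At an unadjusted p under 0.05 there was 1 member, MCM6, on the higher side, beside 6.02% of all genes in either direction and 3.08% on the higher side. Differences are TIP-1 shRNA minus control on the log2 scale, and over the 50 members they ran from -0.21 to 0.22. The median was 0.05 over the 20 replication genes (14 higher, 6 lower) and -0.06 over the 27 G2/M genes (6 higher, 21 lower). It was 0.01 over the D-type cyclins, against -0.01 over all genes. Of all 18417 genes 8758 were higher, and of the 11160 genes at or above the median row level 6257 were higher. The replication and G2/M medians both changed sign without control 1, to -0.037 and 0.062, and the G2/M median was -0.17 without control 2. With each array centred on its median the G2/M median was -0.0033. The groups did not overlap for 8 of 50 members, beside 4883 of 18417 genes. All 3 TIP-1 shRNA arrays lay above both controls for 5 members (10%), beside 12.5% of all genes. They lay below both for 3 members (6%), beside 14.1% of all genes. The 5 were all origin licensing and fork genes, and the 3 were all G2/M genes. For 36 of 50 members the difference between the groups was smaller than that between the 2 controls, beside 57.2% of all genes.

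**Figure D1:**
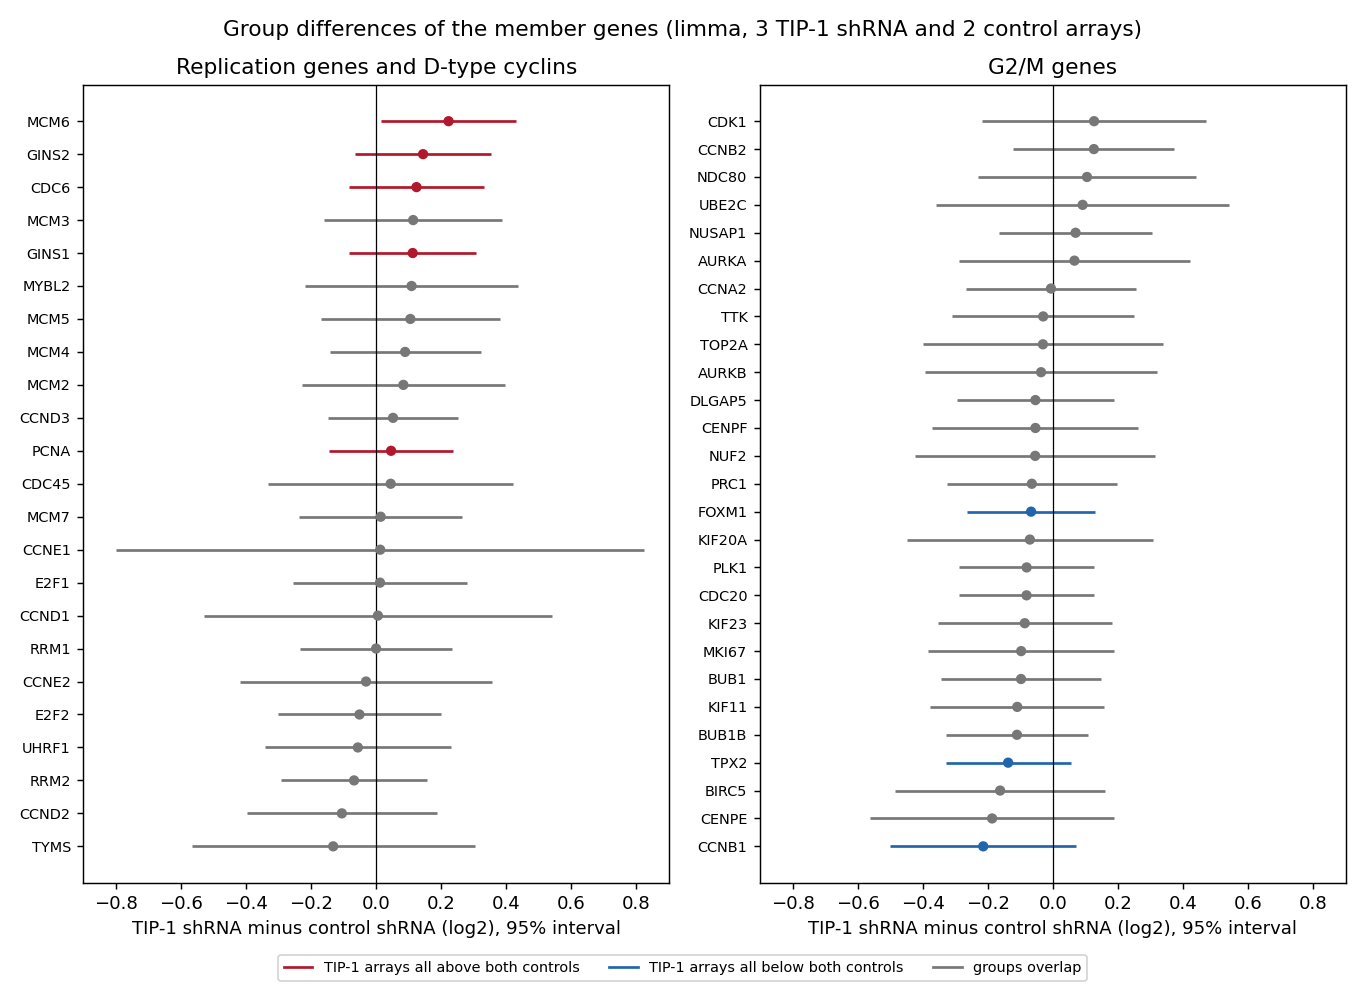
Difference between TIP-1 shRNA (3 arrays) and control shRNA (2 arrays) for each member on the log2 scale, points with limma's 95% intervals. Red marks the 5 members whose TIP-1 shRNA arrays all lay above both controls and blue the 3 whose arrays all lay below; only the unadjusted interval of MCM6 leaves out 0.

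None of the 11 origin licensing and fork genes passed the test. All 11 had a positive difference, from 0.01 for MCM7 to 0.22 for MCM6, with a median of 0.10. Positive differences were found in 8758 of all 18417 genes and in 6257 of the 11160 genes at or above the median row level. Without control 1, 7 of the 11 were positive and the median was 0.025, with MCM2, MCM5, MCM7 and CDC45 on the negative side. The medians of the arrays against the mean of both controls were 0.10, 0.14 and 0.10 in shRNAs 1, 2 and 3, which share those controls. For 5 of the 11 genes the TIP-1 shRNA arrays all lay above both controls, and for none below. Among the genes at or above the median row level, which fits these bright members better as a background, 16.2% lay above and 9.87% below, and the median difference was 0.02. The part of this tendency of bright rows in the fork genes was not tested. With quantile normalization, 10 of the 11 were positive, the median was 0.063 for fork genes and 0.019 for all 20 replication genes, and 3 replication genes in place of 5 lay above both controls.

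MCM6, a subunit of the helicase ring, read 10.36 and 10.39 on the control arrays and 10.55, 10.68 and 10.56 in shRNAs 1, 2 and 3. The controls were close together and every TIP-1 shRNA array lay above them, with the highest value in shRNA 2. The difference was 0.22 (SE 0.09, 95% interval 0.02 to 0.43, limma adjusted p = 0.707). GINS2, a subunit of the GINS complex, read 12.61 and 12.74 on the control arrays and 12.82, 12.87 and 12.78 with TIP-1 shRNA, a difference of 0.14 (SE 0.09, limma adjusted p = 0.724). Its partner GINS1 read 11.90 and 11.82 against 11.95, 11.96 and 12.003, a difference of 0.11 (SE 0.08, limma adjusted p = 0.757). The helicase loader CDC6 read 11.68 and 11.54 against 11.73, 11.71 and 11.76, a difference of 0.12 (SE 0.09, limma adjusted p = 0.746). In these genes the groups did not overlap. For CDC6 the gap between the controls (-0.14, control 2 minus control 1) was larger in size than the group difference, and for GINS2 it was nearly as large (0.12). Without control 2 the difference of CDC6 was 0.052, and without control 1 that of GINS2 was 0.082. PCNA, the sliding clamp of the DNA polymerases, was apart by the narrowest margin, with shRNA 3 level with control 2, at 11.23 and 11.28 on the control arrays and 11.30, 11.33 and 11.28 with TIP-1 shRNA.

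The other ring subunits overlapped between the groups. MCM2 read 10.89 and 11.28 on the control arrays and 11.14, 11.22 and 11.13 with TIP-1 shRNA, so its shRNA arrays all fell between the controls. MCM5 read 10.35 and 10.63 against 10.59, 10.68 and 10.53, with shRNA 2 just above control 2. MCM3 read 11.30 and 11.48 against 11.38, 11.50 and 11.63, a difference of 0.11 (SE 0.11, limma adjusted p = 0.806) that was 0.020 without control 1. MCM4 (11.37 and 11.22 against 11.43, 11.43 and 11.29) and MCM7 (11.88 and 12.09 against 11.95, 11.95 and 12.09) also overlapped. CDC45, which completes the active helicase, split the shRNAs: it read 10.56 and 10.73 in the controls, 10.78 and 10.86 in shRNAs 1 and 2, and 10.41 in shRNA 3.

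**Figure D2:**
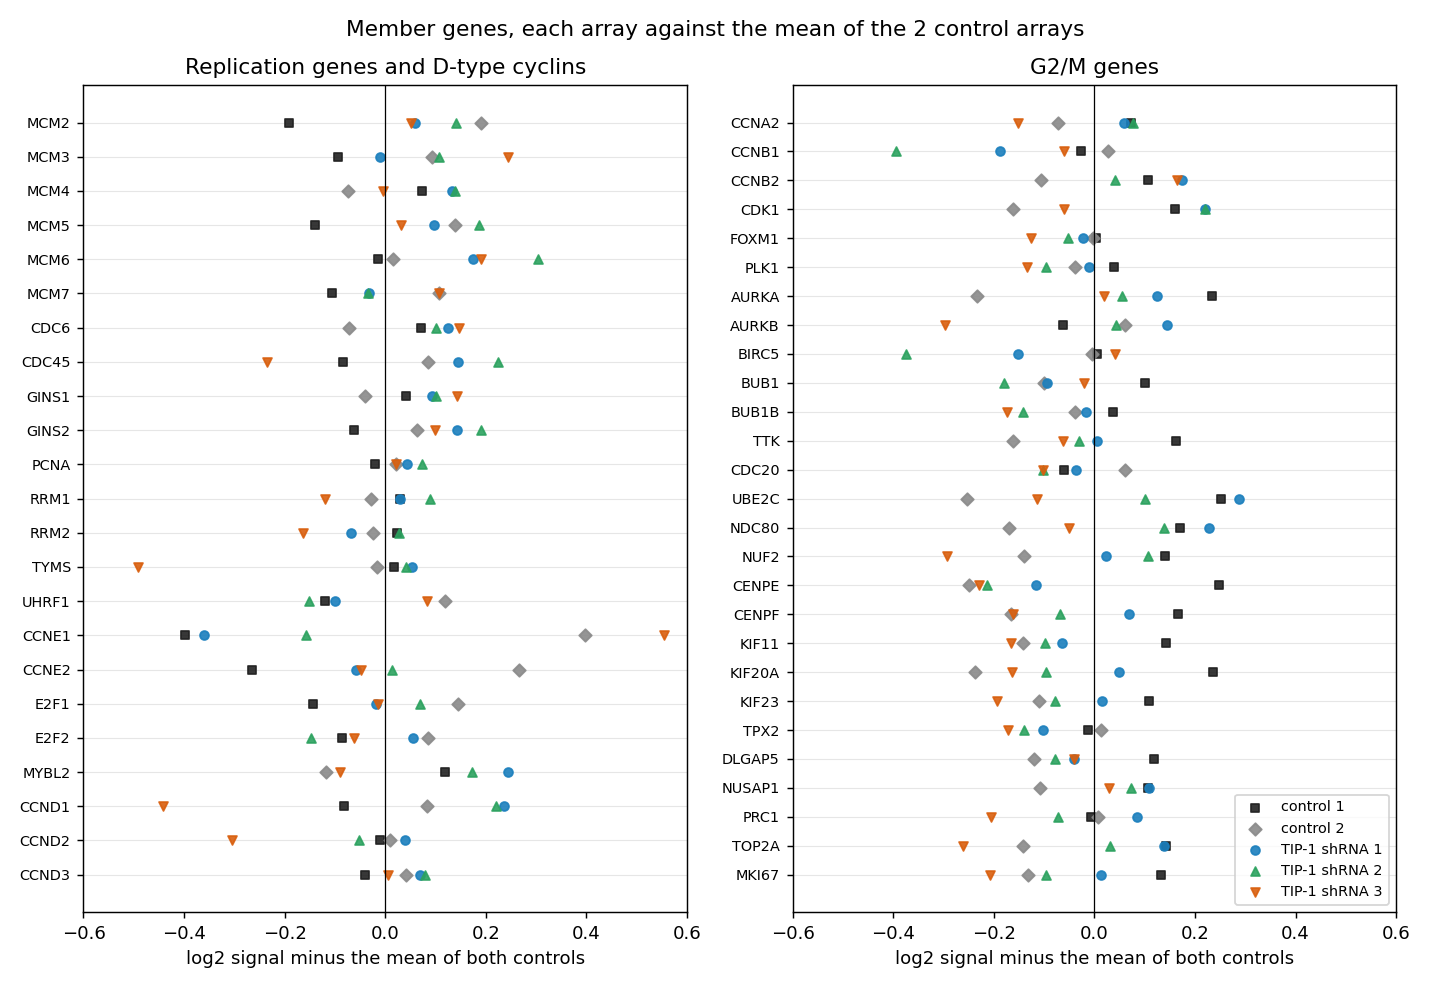
Log2 signal of each member on each of the 5 arrays, minus the mean of the 2 controls, with 1 row per gene and 1 symbol per array. The shRNA arrays sit to the right of both controls for MCM6, CDC6, GINS1, GINS2 and, narrowly, PCNA, while TYMS and CCND1 show shRNA 3 standing apart on the low side, CCNE1 shows it high together with control 2, and many G2/M genes show control 1 to the right of control 2.

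The genes of nucleotide supply gave 4 differences below 0 together with the methylation factor UHRF1, with a median of -0.06 and overlapping groups in each. That of RRM1 was only -0.00036 (SE 0.096). TYMS, thymidylate synthase, read 11.73 and 11.69 in the controls, 11.76 and 11.75 in shRNAs 1 and 2, and 11.22 in shRNA 3. Only the shRNA 3 array was low, by 0.49 below the control mean. The subunits of ribonucleotide reductase, which makes deoxynucleotides, were also lowest in shRNA 3: RRM1 read 12.27 and 12.21 against 12.27, 12.33 and 12.12, and RRM2 read 11.78 and 11.73 against 11.69, 11.79 and 11.59. UHRF1, which brings the maintenance DNA methyltransferase to new DNA, read 11.20 and 11.44 against 11.22, 11.17 and 11.40, with shRNA 3 close to control 2 and the other shRNAs close to control 1.

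CCNE1, the E-type cyclin that partners CDK2 at the start of S phase, showed the widest spread of all members. It read 8.64 in control 1 and 9.44 in control 2, and 8.68, 8.88 and 9.59 in shRNAs 1, 2 and 3. Control 2 and shRNA 3 were high and the other 3 arrays low, so the group difference was 0.01 (95% interval -0.80 to 0.82). CCNE2 read 10.34 and 10.87 on the control arrays and lay between them in all TIP-1 shRNA arrays, at 10.55, 10.62 and 10.56. The activator E2F1 did the same, at 11.09 and 11.38 against 11.21, 11.30 and 11.22. E2F2 (7.64 to 7.87) overlapped as well. MYBL2, a factor that links the G1/S and G2/M programmes, read 12.62 and 12.39 in the controls, 12.75 and 12.68 in shRNAs 1 and 2 and 12.41 in shRNA 3.

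The D-type cyclins, which couple growth signals to CDK4 and CDK6, were low in shRNA 3 for CCND1 and CCND2 but not for CCND3. CCND1 read 12.64 and 12.81 in the controls, 12.96 and 12.95 in shRNAs 1 and 2, and 12.28 in shRNA 3. The first 2 shRNAs lay above both controls and shRNA 3 below both, and the group difference was 0.01 (SE 0.22, 95% interval -0.53 to 0.54). CCND2 read 7.15 and 7.17 against 7.20, 7.11 and 6.86, a difference of -0.11 (SE 0.12, limma adjusted p = 0.829) that was -0.0065 without shRNA 3. CCND3 was even, at 11.77 and 11.85 against 11.88, 11.89 and 11.82, a difference of 0.05 (SE 0.08, limma adjusted p = 0.879). With 1 array per shRNA, the gap between shRNA 3 and the others was not tested.

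Among the mitotic cyclins and kinases, CCNB1 had the largest difference of the G2/M genes. It read 11.48 and 11.53 on the control arrays and 11.32, 11.11 and 11.45 in shRNAs 1, 2 and 3. All TIP-1 shRNA arrays were below both controls, but shRNA 3 only just, and the difference of -0.21 did not pass (SE 0.12, 95% interval -0.50 to 0.07, limma adjusted p = 0.716). Without shRNA 2 it was -0.12. CCNB2, the second B-type cyclin, read 12.14 and 11.92 against 12.20, 12.07 and 12.19, a difference of 0.13 (SE 0.10, limma adjusted p = 0.769). This was 0.021 without control 2 and 0.23 without control 1. Survivin, BIRC5, a subunit of the chromosomal passenger complex, had the shRNA arrays in the same order as CCNB1, at 11.21 and 11.20 on the control arrays and 11.05, 10.83 and 11.24 with TIP-1 shRNA (-0.16, SE 0.13, limma adjusted p = 0.773), and its difference was -0.055 without shRNA 2. In both genes shRNA 2 was the lowest array and shRNA 3 was near the controls.

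Their partner CDK1 read 11.45 and 11.13 on the control arrays and 11.51, 11.51 and 11.23 with TIP-1 shRNA, and CCNA2 read 12.11 and 11.97 against 12.10, 12.12 and 11.89. FOXM1, the transcription factor of the G2/M programme, was nearly equal in the controls at 12.56 and 12.55 and lower in each shRNA array at 12.53, 12.50 and 12.43. Its groups did not overlap, but the difference of -0.07 was smaller than limma's moderated SE of 0.08. The SDs of its own arrays were 0.0041 in the controls and 0.053 with TIP-1 shRNA. PLK1 read 13.19 and 13.12 against 13.15, 13.06 and 13.02. The spindle pole kinase AURKA read 12.34 in control 1 and 11.87 in control 2, with all shRNA arrays between them, at 12.23, 12.16 and 12.12. The chromosomal passenger kinase AURKB was lowest in shRNA 3, at 12.07 and 12.19 in the controls, 12.27 and 12.17 in shRNAs 1 and 2 and 11.83 in shRNA 3.

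The spindle checkpoint and anaphase-promoting complex genes overlapped between the groups in all 5 cases. BUB1B, a checkpoint protein that binds CDC20, read 11.56 and 11.49 against 11.51, 11.38 and 11.35, a difference of -0.11 (SE 0.09, limma adjusted p = 0.772). CDC20, the activator of the anaphase-promoting complex, read 13.06 and 13.18 against 13.08, 13.02 and 13.02. The kinases BUB1 (12.11 and 11.91 against 11.92, 11.83 and 11.99) and TTK (11.05 and 10.72 against 10.89, 10.86 and 10.82) were highest in control 1. UBE2C, the ubiquitin-conjugating enzyme of that complex, had the widest gap between the controls among G2/M genes, at 11.38 and 10.87, and read 11.41, 11.23 and 11.01 with TIP-1 shRNA.

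The kinetochore genes repeated the gap between the controls. CENPE, a kinetochore motor, read 10.80 in control 1 and 10.30 in control 2, and 10.43, 10.33 and 10.32 with TIP-1 shRNA. Control 1 alone was high, and the difference of -0.19 (SE 0.15, limma adjusted p = 0.773) became 0.062 without it. NDC80 (10.66 and 10.32 against 10.72, 10.63 and 10.44), its partner NUF2 (11.57 and 11.29 against 11.45, 11.53 and 11.14) and CENPF (12.39 and 12.06 against 12.29, 12.16 and 12.06) had control 1 above control 2 as well.

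Of the spindle genes, TPX2, which activates AURKA on microtubules, was the 1 member whose groups did not overlap. It read 12.90 and 12.92 on the control arrays and 12.81, 12.77 and 12.74 with TIP-1 shRNA, all below both controls, a difference of -0.14 (SE 0.08, 95% interval -0.33 to 0.05, limma adjusted p = 0.722). The spindle motor KIF11 read 11.97 and 11.69 against 11.76, 11.73 and 11.66, and its difference of -0.11 (SE 0.11, limma adjusted p = 0.809) was 0.033 without control 1. The cytokinesis motors KIF20A (13.07 and 12.59 against 12.88, 12.73 and 12.67) and KIF23 (12.28 and 12.06 against 12.19, 12.09 and 11.98) were highest in control 1. Their midzone partner PRC1 was equal in the controls, at 12.57 and 12.59, and read 12.66, 12.51 and 12.37 in shRNAs 1, 2 and 3. The microtubule-binding proteins DLGAP5 (11.70 to 11.94) and NUSAP1 (12.40 to 12.61) overlapped. TOP2A, which untangles sister chromosomes, read 12.80 and 12.51 against 12.79, 12.69 and 12.39, and the proliferation marker MKI67 read 11.98 and 11.72 against 11.86, 11.75 and 11.64.

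For 20 of 27 G2/M genes the group difference was smaller than the difference between the controls. The same held for 14 of 20 replication genes, beside 57.2% of all genes and 59.0% of brighter genes. Control 2 was below control 1 for 22 of 27 G2/M genes, beside 42.5% of all genes and 43.1% of brighter genes, with a median of -0.22 against 0.03 over all genes. It was below control 1 for 7 of 20 replication genes, with a median of 0.15. Relative to each gene's mean over the 5 arrays, the G2/M median was 0.11 in control 1 and -0.08 in control 2, and 0.06, -0.03 and -0.11 in shRNAs 1, 2 and 3. Thus shRNA 1 lay nearer to control 1, and shRNAs 2 and 3 nearer to control 2. Against the mean of both controls, the G2/M medians were 0.01, -0.07 and -0.13 in shRNAs 1, 2 and 3. In the same order, 11, 17 and 23 of the 27 genes lay below that mean. Beside them, 9138, 9874 and 9773 of all 18417 genes and 5139, 5245 and 4830 of the 11160 brighter genes did so. The third shRNA was the lowest of the silenced arrays for 21 of 27 G2/M genes, beside 44.5% of all genes, and for 10 of 20 replication genes. In bulk RNA, fewer dividing cells and less of these transcripts per cell cannot be told apart.

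**Figure D3:**
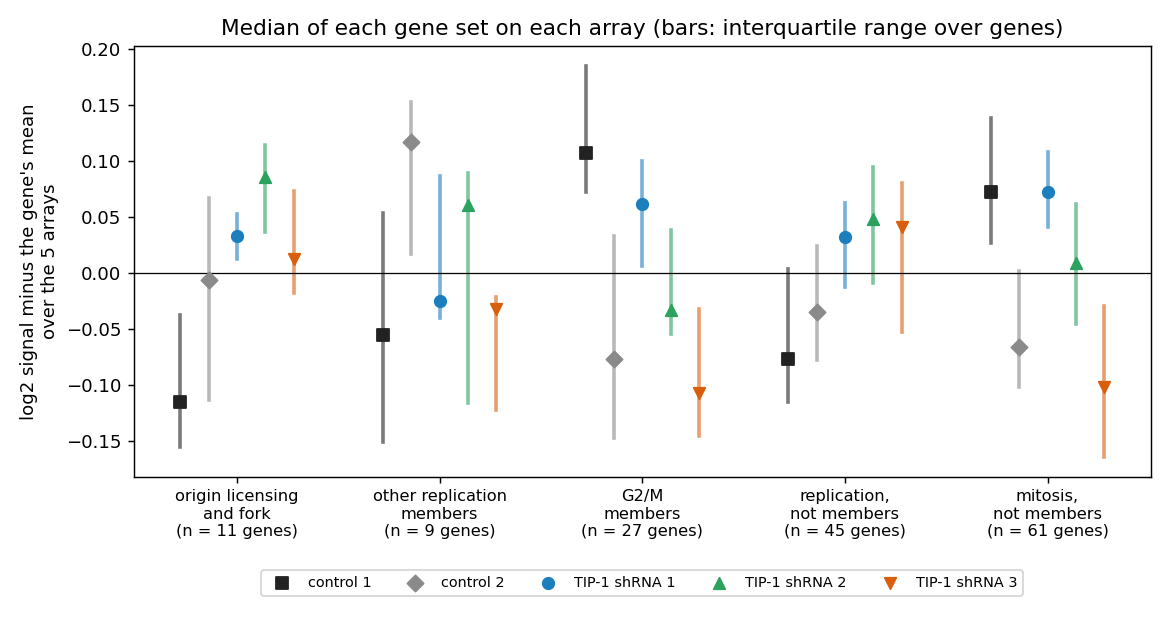
Median over genes of the log2 signal minus each gene's mean over the 5 arrays, for member sets and for pathway genes that are not members; bars span the interquartile range over genes. The G2/M members run from 0.11 in control 1 to -0.11 in shRNA 3, with control 2 at -0.08, whereas both controls lie below all shRNA arrays for the replication genes that are not members.

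Pathway genes outside the members were read from the same fit. Of 46 further replication genes, 45 had a row of their own, and none passed the test. Their median difference was 0.08 (35 higher, 10 lower), beside 8758 of all 18417 genes and 6257 of 11160 brighter genes on the higher side. The TIP-1 shRNA arrays all lay above both controls for 15 of the 45, beside 12.5% of all genes and 16.2% of brighter genes, and below for none. The median remained positive without any 1 array, at 0.077 to 0.11, and with quantile normalization, at 0.07. The array medians against the controls were 0.08, 0.10 and 0.10. The smallest p-values were those of POLE2, a subunit of the leading-strand polymerase (8.04 and 8.06 in the controls, 8.26, 8.36 and 8.41 with TIP-1 shRNA, difference 0.29, SE 0.09, limma adjusted p = 0.707), the licensing inhibitor GMNN (0.17, SE 0.08, limma adjusted p = 0.713) and RPA2, of the single-strand binding complex (0.26, SE 0.13, limma adjusted p = 0.713). POLE2 alone had an unadjusted p under 0.05.

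The 61 mitosis genes outside the members had a median difference of -0.01 (28 higher, 33 lower), which ranged from -0.086 without control 2 to 0.057 without control 1 and was 0.054 with arrays centred on their medians. None passed the test or had an unadjusted limma p under 0.05. Their arrays followed the member G2/M genes: control 2 was below control 1 for 49 of 61 (median -0.14), and shRNA 3 was the lowest silenced array for 46 of 61. The shRNA medians against the controls were 0.06, 0.01 and -0.11. The TIP-1 shRNA arrays lay below both controls for 5 (8.2%, against 14.1% of all genes and 9.87% of brighter genes) and above for 2 (3.3%, against 12.5% and 16.2%). ARHGAP11A, which acts in cytokinesis, had the smallest p on the lower side (11.94 and 11.83 in the controls against 11.79, 11.70 and 11.60, difference -0.19, SE 0.10, limma adjusted p = 0.713).

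Regulators upstream of both sets did not pass the test either. Of 24 genes of the RB, E2F and DREAM group, 4 had TIP-1 shRNA arrays above both controls and 0 below, with a median difference of 0.02. The 4 make up 16.7%, near the 12.5% of all genes and 16.2% of brighter genes. MYBL1, a relative of MYBL2, read 12.23 and 12.07 on the control arrays and 12.32, 12.37 and 12.46 with TIP-1 shRNA (0.23, SE 0.10, limma adjusted p = 0.707), and was the only one with an unadjusted limma p under 0.05. The RB relative RBL1 had the largest negative difference (-0.34, SE 0.16, limma adjusted p = 0.713). Its groups overlapped, at 9.83 and 10.26 on the control arrays and 9.72, 9.89 and 9.53 with TIP-1 shRNA. The gap between its controls (0.43) was larger in size than the group difference. The 6 CDK inhibitors measured had a median difference of -0.06 (2 higher, 4 lower). CDKN1B, which holds back CDK2, read 9.24 and 9.21 on the control arrays and 9.46, 9.38 and 9.66 with TIP-1 shRNA (0.27, SE 0.11, limma adjusted p = 0.707). CDKN1A, the p53-induced inhibitor, read 10.92 and 10.85 against 10.55, 10.78 and 10.69 (-0.22, SE 0.10, limma adjusted p = 0.707). The groups did not overlap for either gene, and the differences had opposite signs. Of the 6 inhibitors these make up 16.7% above and 16.7% below both controls, beside 12.5% and 14.1% of all genes.

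**Figure D4:**
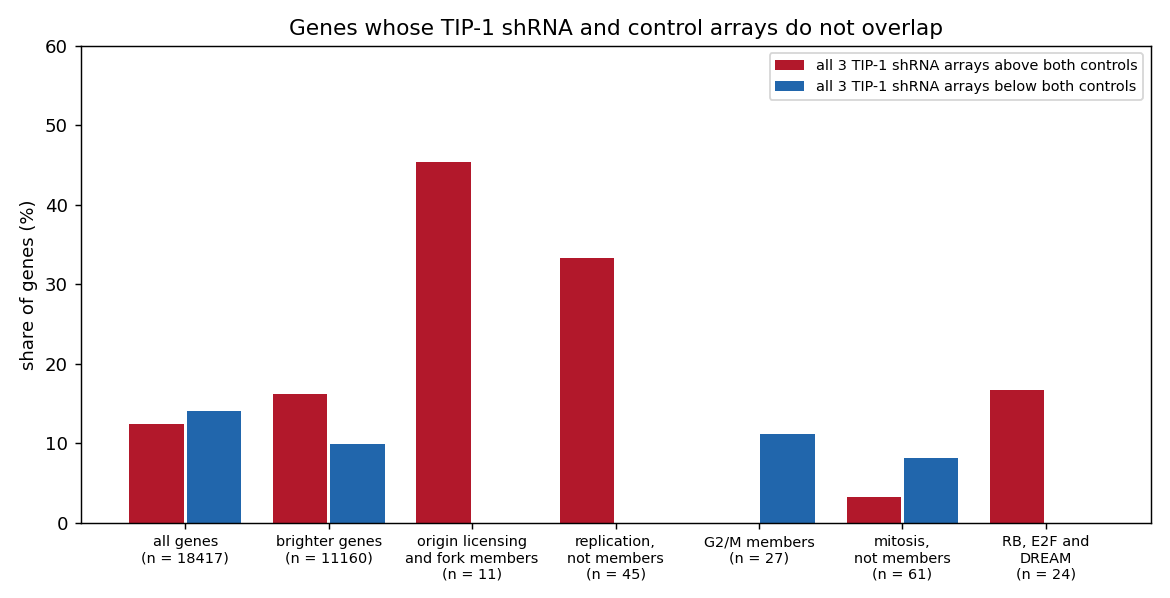
Share of genes whose 3 TIP-1 shRNA arrays all lay above (red) or all below (blue) both controls, for all genes, brighter genes, member sets and pathway genes outside the members, with the number of genes under each pair of bars. Above-control genes made up 5 of 11 fork members and 15 of 45 further replication genes with none below, against 12.5% of all genes; the G2/M members had 3 of 27 below, against 14.1% of all genes.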

How the data were processed

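RNA from 5 D54 samples was hybridised to Affymetrix whole-transcript arrays. Per the series' design text, the authors processed them with the Affymetrix Exon Array Computational Tool; the sources used here do not give its version, background correction or normalization. The deposited values are log2 signals with nearly coinciding quantiles, and were used as the authors left them. Row identifiers were named through annotation of the gene-level array, so no exon was compared. Of 33297 rows, 19460 carried 1 symbol, 1754 several and 12083 none; 19429 single-symbol rows matched a gene identifier of GRCh38.p14 and no symbol changed. All rows were fitted with limma 3.58.1 in R 4.3.3 (lmFit, eBayes, two-sided, no covariate), with Benjamini-Hochberg adjustment over all rows, a threshold of 0.05 and 95% intervals. The fit was run on simulated rows with independent noise and shifts added to some rows, which does not cover effects shared between genes or across an array. Array numbers limit the precision. Full statistics were given for the silenced gene, the 12 members with the smallest p and the D-type cyclins, and for up to 3 genes per direction of each further list; a step of 0.5 from both controls on any array named no other member. Of 194 other listed symbols, 189 were measured and the rest not analysed here. Members and lists were chosen with earlier results of these data known. Sequences are RefSeq's. Alternatives covered normalization, centring, dim rows, variance model, replicate block, array weights, row choice, the split and leaving out arrays.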

Additional observations from a re-analysis of the deposited data

How the results depend on the processing

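No member passed in any alternative (lowest limma adjusted p 0.453). Over all 50 members, 520 of 598 differences under 12 alternatives kept their sign, and 78, from 32 members, changed it; the largest of these as deposited was 0.187 in size. Among members with full statistics, CCND1 changed sign with quantile normalization (-0.022) and ranged from -0.11 to 0.23 when 1 array was left out, CENPE from -0.44 to 0.062 and KIF11 from -0.25 to 0.033. Quantile normalization left 3 replication genes above both controls and medians of 0.063 for fork genes and 0.019 for replication genes. Centring on array medians left 1 G2/M gene below both controls, and gave medians of -0.0033 for G2/M genes, 0.054 for mitosis genes outside the members, 0.17 for fork genes, 0.14 for replication genes outside the members, and 0.16 and 0.12 for replication members in shRNAs 2 and 3. Array weights gave 2 rows past the threshold and 0.10 for replication genes outside the members. A replicate block gave 15 rows past the threshold and a fork median of 0.11. In it shRNA 3 adds nothing, as no control shares its number. Over all rows, deviations from the group means correlated at 0.05 for number 1 and -0.05 for number 2. With 2 controls, whose deviations are equal and opposite, these values cannot show whether the numbers pair the arrays. Leaving out 1 array gave -2.50 to -2.37 for TAX1BP3 and 0 to 6 rows past the threshold. Members with the groups apart then numbered 10 to 30, replication genes above both controls 5 to 12 and G2/M genes below 3 to 17; such counts grow as fewer arrays remain. Medians ranged from -0.037 to 0.096 for replication, 0.025 to 0.13 for fork, -0.17 to 0.062 for G2/M, 0.077 to 0.11 for replication genes outside the members and -0.086 to 0.057 for mitosis genes outside them; 7 to 11 fork genes were positive. By shRNA they ranged from -0.089 to 0.13, -0.15 to 0.040 and -0.22 to -0.024 for G2/M genes in shRNAs 1, 2 and 3, and from -0.018 to 0.12 for replication genes in shRNA 3. The highest and lowest of these medians came from leaving out a control. The signal over background of each row was not given, which limits what can be said of dim rows. Alternatives for the fork genes, the genes outside the members, the genes above or below both controls and the single shRNAs were chosen after seeing the data.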

Other observations

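The third shRNA, in which 23 of 27 G2/M genes lay below the control mean and TYMS and CCND1 were lowest, also stood apart in p53 targets of growth arrest. The 13 measured had a median of 0.33 above the control mean in shRNA 3, beside -0.02 over all genes and 0.04 over brighter genes. In shRNAs 1 and 2 the median of the 13 was -0.02 and 0.05. Over all 3 shRNAs the median group difference of the 13 was 0.11 (11 higher, 2 lower), beside 8758 of all 18417 genes on the higher side. None of the 13 passed the limma test or had an unadjusted p under 0.05. The stress cytokine GDF15, chosen after its values were seen, read 9.27 and 9.63 in controls 1 and 2 and 9.11, 9.47 and 10.67 in shRNAs 1, 2 and 3. MDM2, which degrades p53 and was chosen likewise, was 11.67 and 11.55 in the controls, 11.41 and 11.50 in shRNAs 1 and 2 and 11.95 in shRNA 3. CDKN1A did not follow them, being lower than both controls in all 3 shRNA arrays. PLK3, a stress-responsive kinase, was the 1 of the 13 with TIP-1 shRNA arrays above both controls (difference 0.22, SE 0.10, limma adjusted p = 0.707). Such genes made up 7.7% of the 13 above and 7.7% below, beside 12.5% and 14.1% of all genes. Across the whole array, too, shRNA 3 was the silenced array that departed most often from the controls. It lay between them for 4163 of 18417 genes, against 6731 for shRNA 1 and 5784 for shRNA 2. With 1 array for shRNA 3, none of these gaps between shRNAs was tested.

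Second, dimmer rows existed for UHRF1 and BIRC5. They gave differences of -0.12 (SE 0.13, limma adjusted p = 0.825) and -0.08 (SE 0.11, limma adjusted p = 0.863), of the same sign as the rows used.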
